A study of Mus musculus with 74 samples.

Results

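Hbegf, the mouse gene for heparin-binding EGF-like growth factor, was measured by 1 probe, number 5501, of the 8976 on each array of a cDNA series that followed the response of 5 lines of mouse cells to TGF-β. The probe is the only one whose single gene symbol in the platform annotation is Hbegf, so the gene is 1 of 5844 named by such probes, and it gave a value on all 74 arrays. The gene was chosen by its measured log2 ratios on these same arrays, which showed it high after TGF-β in some lines and low in another. Its values are therefore given as a description, with errors and without tests, and nothing is supported with them.

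HB-EGF is made as a membrane-anchored precursor that metalloproteases of the ADAM family cut to release a soluble ligand. The ligand binds the receptors EGFR and ERBB4, whose signal runs through adaptors and Ras to RAF, MEK and ERK, and in many cell types, fibroblasts among them, Hbegf is itself an early gene of growth factor signalling. TGF-β acts mainly through receptor kinases that phosphorylate Smad2 and Smad3, and it can also activate ERK.

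Every array compared 2 RNA samples of the same line at the same time. Channel 1 held cells without TGF-β and channel 2 cells given TGF-β, except at 0 h, where both channels held cells without it. The labels name the lines S2KO, U0126, S2WT, S3KO and S3WT, and the times 0, 0.3, 1, 2 and 4 h. These give 25 groups of 3 arrays each, except S3KO at 1 h, which has 2. In the study these labels match, S2KO and S3KO stand for mouse embryo fibroblasts without Smad2 or Smad3, S2WT and S3WT for their wild-type counterparts, and U0126, an inhibitor of MEK, was given to S2WT cells in both channels. The labels themselves give neither the cell type nor the dose, nor whether a line is 1 clone, and do not say whether replicates were separate cultures, so the spread between arrays may be technical. Because each ratio is taken within a line, the arrays cannot check the lost genes or cell type markers as levels, and the basal level of Hbegf in the lines cannot be compared. Labels conflict in 3 places: the channel labels of S2WT at 4 h name 2 h, a channel label of S3KO at 0.3 h names no TGF-β for both channels, and the U0126 titles read as a comparison with S2WT where the channel labels name 1 line. The title was followed for the times and the channel labels for U0126.

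The values are log2 ratios with the median probe of each array set to 0, so 1 unit is a doubling relative to that median. No source used here gives the direction of the ratio, and a likely one, channel 2 over channel 1, was assumed. Its basis is the channel labels and 4 genes known to be induced by TGF-β (Skil, Smad7, Gadd45b and Snai1), measured on 5 probes. Of their 25 means at 1 to 4 h, 1 per probe and line, 24 were above 0 and 22 above the own 0 h mean. The exception below 0 was 1 of the Smad7 probes in S3WT, at -0.03 against 1.55 at 0 h. Skil averaged 1.11 in S2KO, 0.24 in U0126, 0.41 in S2WT, 0.10 in S3KO and 0.41 in S3WT. If the ratio ran the other way, every sign below would turn and every place in an order would be counted from its other end. Of the 74 arrays, 7688 to 8713 probes had a value on each, and in the absence of channel intensities the signal behind a ratio is unknown. Precision is limited by how many arrays a group has. With 2 or 3 arrays per group, complete separation of groups is a weak criterion that many probes can meet by chance. The share of all probes that separate between lines, or between neighbouring times, is not given here. On 5 arrays the probes correlated with r under 0.2 to the mean of the 0 h groups of S2KO, U0126, S2WT and S3WT, against 0.22 to 0.74 for the rest. They are S3KO at 0 h replicate 1 (r = -0.16) and replicate 2 (-0.10), S3KO at 1 h replicate 2 (-0.38), U0126 at 1 h replicate 1 (0.10) and S3WT at 4 h replicate 1 (0.14). The measure is not even between lines. The 0 h arrays of S2KO, U0126, S2WT and S3WT are part of that mean, which raises their r, while no S3KO array is. The cutoff of 0.2 has no wide gap around it, with 0.14 below and 0.22 above. The direction of S3KO at 1 h replicate 2 is not settled, because over the 2244 probes measured on every array it correlated below -0.3 with 16 other arrays. Over all probes that a pair of arrays shared, the lowest r of any pair was weaker, at -0.19. Responses and differences of responses that include these arrays are given with and without them.

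In S2KO cells Hbegf was near the array median until 0.3 h and well above it from 1 h on. At 0 h the 3 arrays read 0.53, -0.02 and -0.33. At 0.3 h they read -0.46, 0.48 and 0.20, which overlaps the 0 h arrays on both sides. At 1 h they read 1.56, 1.78 and 0.91, above every array of both earlier times. At 2 h the values were 2.60, 1.31 and 3.28. At 4 h they were 4.65, 1.88 and 3.05, and the group mean of 3.19 ± 1.39 (SD, n = 3) is a 9.16-fold ratio, the highest group mean of the 25. The 2 h arrays overlapped those of 1 h and 4 h, so only the step from 0.3 to 1 h separated neighbouring times. Replicate 1 at 4 h, 4.65 or 25.1-fold, was the highest Hbegf value of the series, while replicate 2 of the same group read 3.68-fold.

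In cells labelled U0126, the MEK inhibitor, Hbegf was also above the median from 1 h, with the highest mean at 2 h rather than 4 h. The 0 h arrays read 0.33, 0.17 and 0.20, and those at 0.3 h 0.39, 0.11 and -0.83. At 1 h replicates 2 and 3 read 1.83 and 1.41, and replicate 1, one of the arrays that stood apart, read -0.47. The 2 h arrays read 2.00, 1.71 and 1.43, and the 4 h arrays 1.13, 0.87 and 1.40. All 4 h arrays lay below all 2 h arrays, by 0.58 in the mean, and this was the only line whose 4 h arrays all lay below its 2 h arrays.

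In S2WT cells, the wild type of the Smad2 pair, the arrays agreed most closely among the lines with a clear ratio. At 0 h they read 0.10, 0.23 and 0.12, and at 0.3 h 0.41, 0.71 and -0.33. The values were 1.51, 1.58 and 0.91 at 1 h and 1.83, 1.87 and 1.82 at 2 h. The 4 h arrays, whose channel labels name 2 h, read 2.44, 2.45 and 2.79. Every step from 0.3 h onward therefore separated the arrays completely, and the means were 1.33 ± 0.37 at 1 h, 1.84 ± 0.03 at 2 h and 2.56 ± 0.20 at 4 h (SD, n = 3). The last is a 5.90-fold ratio.

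In S3KO cells, labelled as lacking Smad3 in the matching study, Hbegf stayed within 0.8 of the median on every array. The 0 h arrays read -0.08, -0.16 and -0.002, and the 0.3 h arrays, whose label is in doubt, 0.32, 0.36 and 0.26. The 2 arrays at 1 h were the lowest of the line, at -0.61 in replicate 2 and -0.25 in replicate 3. With the sign of replicate 2 turned, those 2 arrays would lie on opposite sides of 0. At 2 h the arrays read 0.79, 0.74 and 0.51, and at 4 h 0.53, 0.62 and 0.10. All 6 arrays at 2 and 4 h were above all 3 at 0 h, and the mean at 2 h, 0.68 ± 0.15 (SD, n = 3), was a 1.60-fold ratio.

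In S3WT cells, the wild type of the Smad3 pair, Hbegf was above the median from 1 h and did not separate the later times. The 0 h arrays read 0.06, 0.25 and 0.15, and the 0.3 h arrays 0.41, 0.23 and 0.43. At 1 h the values were 1.65, 0.87 and 0.91, at 2 h 2.43, 1.21 and 1.25, and at 4 h 1.34, 2.62 and 0.87. The means at 2 h (1.63 ± 0.69) and 4 h (1.61 ± 0.91; SD, n = 3) were nearly equal. In each of these groups 1 array stood over 1 unit above the other two, replicate 1 at 2 h and replicate 2 at 4 h. Pooled over the times of a line, the spread between arrays of a group was 0.84 in S2KO, 0.64 in U0126, 0.31 in S2WT, 0.18 in S3KO and 0.55 in S3WT (SD of the log2 ratio), so a given gap says more in S2WT and S3KO than in S2KO.

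**Figure D1:**
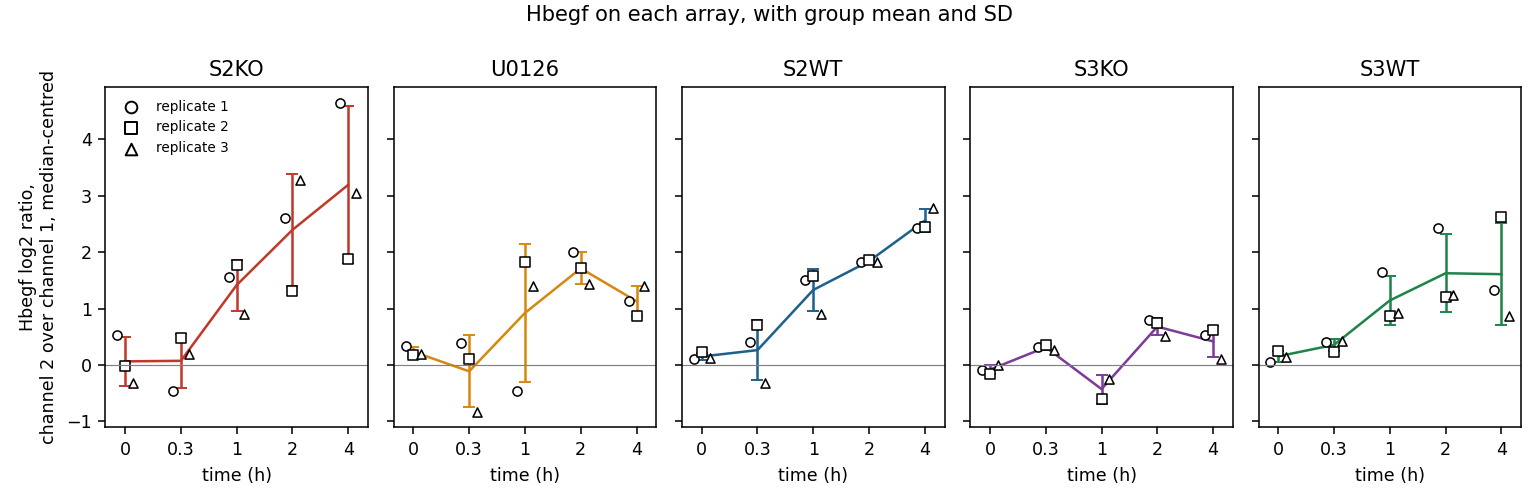
Hbegf log2 ratio on each array (points), by time in hours, in 1 panel per line, with the group mean and its SD (n = 3, and 2 for S3KO at 1 h). The 1 to 4 h points of S3KO stay between -0.61 and 0.79, while those of S2KO reach 4.65.

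Set against all probes of the same array, Hbegf was among the highest ratios in 4 of the 5 lines. It lay in the top 5% of probes on 9 of 9 arrays at 1 to 4 h in S2KO, 7 of 9 in U0126, 8 of 9 in S2WT, 1 of 8 in S3KO and 8 of 9 in S3WT. No array at 0 or 0.3 h, of 30, placed it there. Its median place over those later arrays was the top 1.38% in S2KO, 2.09% in U0126, 1.84% in S2WT, 10.7% in S3KO and 2.84% in S3WT. With the direction of the ratio turned, it would lie in the top 5% on none of these arrays, and the median places would be 98.6% in S2KO, 97.9% in U0126, 98.1% in S2WT, 89.3% in S3KO and 97.1% in S3WT. On replicate 1 of S2KO at 4 h it was number 14 of 8247 probes, its highest place in percent, and on replicate 2 of S3KO at 1 h it was number 7814 of 8474.

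**Figure D2:**
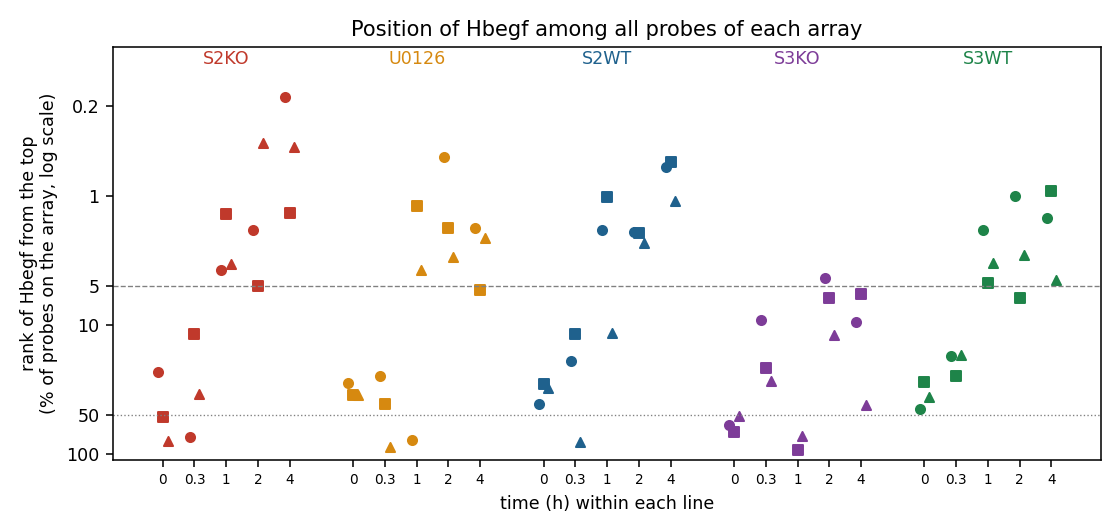
Place of Hbegf among the probes of each array, as the percent of probes at or above it (log scale, top of the array at the top), by line and time in hours. Circles, squares and triangles are replicates 1, 2 and 3, the dashed line marks 5% and the dotted line 50%. In S3KO only the circle at 2 h passes the dashed line.

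The response of a line was its average level over the 1, 2 and 4 h group means, less the mean of its 0 h arrays. It was 2.27 ± 0.37 in S2KO, 1.02 ± 0.37 in U0126, 1.76 ± 0.37 in S2WT, 0.31 ± 0.38 in S3KO and 1.31 ± 0.37 in S3WT (log2 difference ± SE from the fit over all arrays). As ratios these are 4.83-fold, 2.03-fold, 3.39-fold, 1.24-fold and 2.47-fold in that order of lines. The SE uses 1 SD for all lines, 0.56, while the SD within a line ran from 0.18 in S3KO to 0.84 in S2KO. It is therefore too small for S2KO and too large for S3KO, and the Hbegf intervals below rest on the same SD. Without the 5 arrays that stood apart the response was 1.25 in U0126, 0.29 in S3KO and 1.35 in S3WT, and with the sign of S3KO at 1 h replicate 2 turned it was 0.51 in S3KO. Among all probes tested, ordered from the highest response, Hbegf was number 25 of 8151 in S2KO, 296 of 8349 in U0126, 50 of 8331 in S2WT, 1342 of 7469 in S3KO and 141 of 8340 in S3WT. With the direction turned these places would be 8127 in S2KO, 8054 in U0126, 8282 in S2WT, 6127 in S3KO and 8200 in S3WT.

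Every array at 1 to 4 h was above every 0 h array of its own line in S2KO, S2WT and S3WT. The same held for 0.628% of probes in S2KO, 1.59% in S2WT and 0.799% in S3WT, of those measured on all these arrays, and the same contrast chose the gene. With the direction turned, Hbegf and these same probes would lie below the 0 h arrays instead, so the shares would not change. In U0126, where 0.674% of probes met this, only replicate 1 at 1 h fell below the 0 h arrays, and in S3KO, where 0.844% met it, both 1 h arrays did.

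Measured against the mean of the 5 groups of 0 h arrays (15 arrays, shared by all lines), the response was 2.23 ± 0.24 in S2KO, 1.15 ± 0.24 in U0126, 1.81 ± 0.24 in S2WT, 0.12 ± 0.25 in S3KO and 1.36 ± 0.24 in S3WT (SE). By this measure Hbegf had the second highest response of the 7444 probes tested in S2KO, the fourth highest of 7555 in S2WT, the 11th of 7558 in S3WT, the 31st of 7543 in U0126 and the 1886th of 7085 in S3KO. With the direction turned it would be number 7443 in S2KO, 7552 in S2WT, 7548 in S3WT, 7513 in U0126 and 5200 in S3KO. Without the 5 arrays that stood apart the response was 2.22 in S2KO, 1.37 in U0126, 1.79 in S2WT, 0.16 in S3KO and 1.39 in S3WT, and with the sign of S3KO at 1 h replicate 2 turned it was 0.32 in S3KO. The order of the 5 lines was the same against either set of 0 h arrays.

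**Figure D3:**
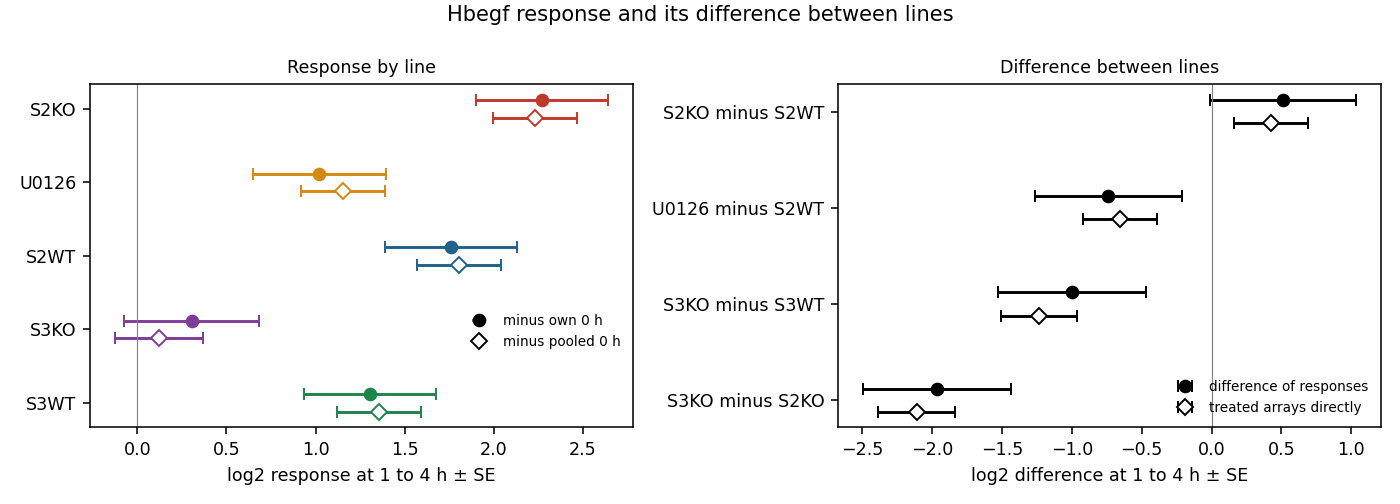
Left, the Hbegf response at 1 to 4 h in each line against its own 0 h arrays and against the pooled 0 h arrays. Right, differences between lines, as differences of responses and on the treated arrays alone. Points are log2 values and bars are ± 1 SE. The S3KO minus S2KO difference lies farthest below 0, at -1.97 between responses.

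Between S2KO and S2WT, the pair that bears on Smad2, the arrays overlapped at every time. At 4 h the S2KO arrays read 4.65, 1.88 and 3.05 against 2.44, 2.45 and 2.79 in S2WT, whose channel labels name 2 h. S2KO thus held both the highest and the lowest value. The response differed by 0.51 ± 0.53 (SE), with a 95% interval of -0.54 to 1.57. Compared on the treated arrays alone, S2KO was higher by 0.43 ± 0.26. Without replicate 1 of S2KO at 4 h the difference of responses was 0.27, and without replicate 1 of S2KO at 0 h it was 0.75.

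Between U0126 and S2WT, the pair that bears on MEK, the arrays separated only at 4 h. The channel labels of S2WT at that time name 2 h, and the titles were followed. At 4 h U0126 read 1.13, 0.87 and 1.40 against 2.44, 2.45 and 2.79 in S2WT, a mean difference of -1.43 ± 0.46 (SE). The highest U0126 array was about 1 unit below the lowest S2WT array. At 2 h the means were 1.71 in U0126 and 1.84 in S2WT, and the arrays overlapped. The difference of responses over 1 to 4 h was -0.74 ± 0.53 (95% interval -1.79 to 0.32), and -0.51 without U0126 at 1 h replicate 1. On the treated arrays alone it was -0.65 ± 0.26.

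Between S3KO and S3WT, the pair that bears on Smad3, the arrays separated at 1, 2 and 4 h and also at 0 h. How many of all probes separate in the same way is not given here. At 1 h S3KO read -0.61 and -0.25 against 1.65, 0.87 and 0.91 in S3WT. At 2 h S3KO read 0.79, 0.74 and 0.51 against 2.43, 1.21 and 1.25. At 4 h S3KO read 0.53, 0.62 and 0.10 against 1.34, 2.62 and 0.87, and the highest S3KO array was below the lowest S3WT array. The mean differences were -1.57 at 1 h, -0.95 at 2 h and -1.19 at 4 h, and -0.24 at 0 h, where neither channel had TGF-β and the largest S3KO value was below the smallest in S3WT. Replicates 1 and 2 of S3KO at 0 h are among the arrays that stood apart, and the remaining array, at -0.002, was also below every S3WT array at 0 h. At 0.3 h the means were 0.31 in S3KO and 0.36 in S3WT, and the arrays overlapped. The difference of responses was -1.0 ± 0.53 (95% interval -2.07 to 0.07), -1.07 without the 5 arrays that stood apart and -0.80 with the sign of S3KO at 1 h replicate 2 turned. On the treated arrays alone it was -1.24 ± 0.27 (95% interval -1.79 to -0.69).

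S3KO and S2KO were not labelled as a pair, but they gave the widest gap. The mean differences were -1.85 at 1 h, -1.72 at 2 h and -2.78 at 4 h, with no overlap at any of these times and overlap at 0 and 0.3 h. The response of S3KO was lower than that of S2KO by a difference of -1.97 ± 0.53, and on the treated arrays alone the difference was -2.11 ± 0.27. The difference of responses was -1.99 without the 5 arrays that stood apart and -1.76 with the sign of S3KO at 1 h replicate 2 turned. Ordered on the treated arrays alone, Hbegf was number 7426 of the 7427 probes tested, next to the lowest, and it would be number 2 with the direction turned.

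In the order of the lines at a time, most neighbours did not differ beyond their spread. At 0 h the means ran from 0.23 in U0126 over S3WT, S2WT and S2KO to -0.08 in S3KO, and each line overlapped the next. At 0.3 h the order was S3WT, S3KO, S2WT, S2KO and U0126, within 0.36 to -0.11 and again with overlap throughout. At 1 h it was S2KO, S2WT, S3WT, U0126 and S3KO, and the last gap, 1.35, overlapped only through replicate 1 of U0126. At 2 h it was S2KO, S2WT, U0126, S3WT and S3KO, where S3WT and S3KO did not overlap. At 4 h it was S2KO, S2WT, S3WT, U0126 and S3KO, where U0126 and S3KO did not overlap. S3KO was lowest at every time except 0.3 h.

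The other genes of the route from HB-EGF to ERK were taken from 6 lists of 89 genes, of which 33 were measured, on 41 probes. None of the 10 other EGF-family ligands was among them, so Hbegf is the only ligand of the family described. Each gene was tested with limma's moderated test and Benjamini-Hochberg adjustment over all probes tested, and "called" means an adjusted p of at most 0.05. Against the own 0 h arrays, 0 of 41 probes were called in S2KO, in U0126 and in S2WT, 0 of 40 in S3WT and 1 of 38 in S3KO. The share called among all probes was 0.515% in S2KO, 0.0719% in U0126, 0.192% in S2WT, 1.53% in S3KO and 0.12% in S3WT. At an unadjusted p under 0.05 there were 2 probes in S2KO, 4 in U0126, 2 in S2WT, 5 in S3KO and 1 in S3WT. Over all probes tested that threshold took 8.22% in S2KO, 6.35% in U0126, 7.8% in S2WT, 10.8% in S3KO and 5.47% in S3WT.

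The single call, in S3KO, was Ets2, a transcription factor that ERK phosphorylates, with a response of 1.33 ± 0.34 (SE, limma adjusted p = 0.03). It rests on the 0 h arrays: these averaged -1.49 and ranged from -3.63 to -0.03, while the means of the 1, 2 and 4 h groups lay between -0.32 and 0.12. Without replicate 2 of S3KO at 0 h, one of the arrays that stood apart, the response was 0.26 (limma adjusted p = 0.999) and no gene of the lists was called. Without replicate 2 of S3KO at 1 h it was 1.28 (limma adjusted p = 0.0579), and without the 5 arrays that stood apart 0.60 (limma adjusted p = 0.9999). Without replicate 3 of S3KO at 0 h, 4 probes of the lists were called.

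Against the pooled 0 h arrays, 38 probes of the lists were tested in each line. Of these, 2 rose in S2KO and 1 rose in S2WT, none fell, and none was called in U0126, S3KO or S3WT. Of all probes, 2.49% were called in S2KO, 0.782% in U0126, 1.27% in S2WT, 0.0141% in S3KO and 0.146% in S3WT. Beside that background, counts of 1 and 2 in 38 are no result about the lists. At an unadjusted p under 0.05 there were 7 probes in S2KO, 10 in U0126, 9 in S2WT, 3 in S3KO and 5 in S3WT. Over all probes tested it took 14.9% in S2KO, 10.6% in U0126, 12.3% in S2WT, 5.17% in S3KO and 8.41% in S3WT. The median response over the lists was 0.06 in S2KO and 0.00 in S2WT, against 0.00 and 0.01 over all probes tested. No probe of the lists was called in the difference of responses between S2KO and S2WT, between U0126 and S2WT or between S3KO and S3WT, where limma called 0.0386%, 0.0252% and 0.126% of all probes. At an unadjusted p under 0.05 those differences gave 3, 2 and 2 probes of the lists, against 7.13%, 6.11% and 9.05% of all probes in the same order.

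Among the receptors, Egfr, the main receptor of HB-EGF, was not called in any line. Its response against the pooled 0 h arrays was -0.50 ± 0.17 in S2KO (SE, limma adjusted p = 0.111) and -0.39 ± 0.17 in S2WT (limma adjusted p = 0.294), against -0.04 in U0126, 0.00 in S3KO and 0.01 in S3WT. These values depend on the pool, because the Egfr means at 0 h ran from -0.52 in S2KO to 0.03 ± 0.60 in S3KO (SD, n = 3). In S3KO the Egfr means were 0.11 at 1 h, -0.48 at 2 h and -0.38 at 4 h. In S2KO they were -0.30, -0.76 and -1.19 at the same times. Erbb3, a receptor with little kinase activity of its own that binds neuregulins, lay between -0.11 and 0.28 in the 5 lines. Erbb2 and Erbb4 were not analysed here.

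For shedding and presentation, 12 of 24 genes were measured, among them the proteases Adam9, Adam10, Adam12, Adam15, Adam17 and Adam19, and none was called in any line. The smallest p-values in S2KO or S2WT belonged to Rhbdf2, an inactive rhomboid that brings the protease ADAM17 to the cell surface, and Cd9, a tetraspanin that associates with the HB-EGF precursor. In S2WT their responses were 0.29 ± 0.12 for Rhbdf2 (0.21 on its other probe; limma adjusted p = 0.259) and -0.42 ± 0.17 for Cd9 (limma adjusted p = 0.28). Among adaptors and the Ras to ERK cascade, 6 of 16 genes were measured and none was called. The smallest p-values in S2KO or S2WT were those of Shc1, an adaptor of activated receptors, at -0.28 in S2WT (-0.25 on its other probe) and Braf, a RAF kinase, at 0.49 on both probes in S2WT. In U0126, limma's unadjusted p was under 0.05 for 4 of 9 cascade probes and 5 of 16 shedding probes, against 10.6% of all probes. There 1 Braf probe had means of 0.47 at 1 h, 0.71 at 2 h and 0.91 at 4 h, against 0.09 at 0 h. The other had 0.02, 0.13 and 0.39, against -0.28.

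Of the negative regulators, 5 of 15 genes were measured. Lrig1, a membrane protein that promotes EGFR degradation, was called in S2KO against the pooled 0 h arrays, at 0.40 ± 0.11 (SE, limma adjusted p = 0.0369). Its group means in S2KO were 0.30 at 1 h, 0.70 at 2 h and 0.48 at 4 h, against 0.23 ± 0.09 at 0 h in S2KO (SD, n = 3) and -0.40 ± 0.84 at 0 h in S3KO (SD, n = 3). The S3KO 0 h arrays are part of the pool, and with them left out the response was 0.28 (limma adjusted p = 0.314). Without the 5 arrays that stood apart it was 0.33 (limma adjusted p = 0.0564). Nf1, a Ras GTPase-activating protein, had the next smallest p in S2KO or S2WT, with -0.52 ± 0.23 in S2WT (limma adjusted p = 0.327).

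Of the ERK-responsive early genes, 8 of 20 were measured. Ier2, an immediate early gene for a nuclear protein, rose against the pooled 0 h arrays in S2KO by 1.13 ± 0.25 (SE, limma adjusted p = 0.00313) and in S2WT by 1.05 ± 0.25 (limma adjusted p = 0.0163). In the other lines it stood at 0.33 in U0126, -0.13 in S3KO and 0.51 in S3WT and was not called. In S2KO the Ier2 means were 0.94 at 1 h, 0.99 at 2 h and 2.46 at 4 h, and 0.74 at 0 h, where 2 of the 3 arrays had a value. In S2WT they were 0.99 at 1 h, 1.68 at 2 h and 1.46 at 4 h, and 0.41 at 0 h. Against the own 0 h arrays the Ier2 responses were 0.73 ± 0.44 in S2KO and 0.97 ± 0.37 in S2WT and were not called (limma adjusted p = 0.743 and 0.408). Both calls were lost when the pool left out S3KO, at 0.90 in S2KO (limma adjusted p = 0.0552) and 0.82 in S2WT (limma adjusted p = 0.153), and Ier2 averaged -0.60 on the S3KO 0 h arrays. Without the 5 arrays that stood apart, Ier2 was called in S2KO but not in S2WT (0.82, limma adjusted p = 0.072). With arrays scaled to a common spread it was called in neither, at 0.84 in S2KO (limma adjusted p = 0.0862) and 0.95 in S2WT (limma adjusted p = 0.055). Ier5, a related early gene, stood at 0.68 ± 0.23 in S2KO (limma adjusted p = 0.109) and 0.51 ± 0.23 in S2WT (limma adjusted p = 0.324).

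**Figure D4:**
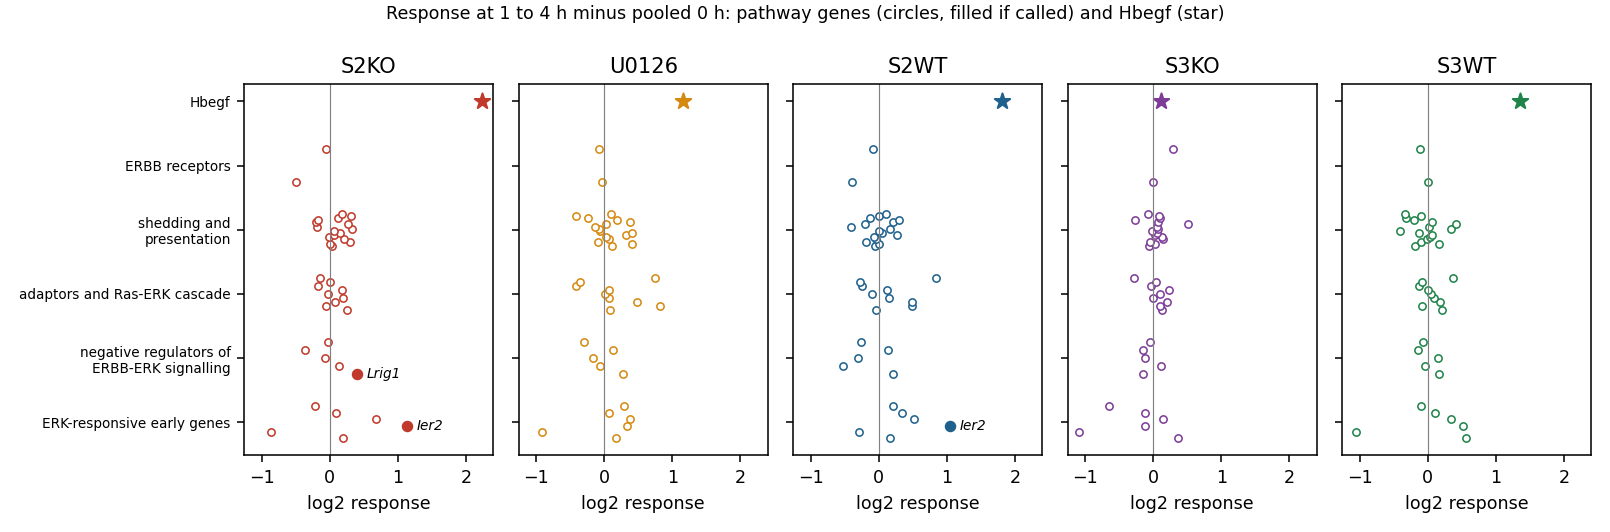
Response at 1 to 4 h against the pooled 0 h arrays for the probes of the gene lists (circles, filled where called) and for Hbegf (star), in 1 panel per line (log2). Filled circles are Lrig1 and Ier2 in S2KO and Ier2 in S2WT, and Hbegf lies to the right of every list probe in S2KO, U0126, S2WT and S3WT.

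The genes whose ratio followed that of Hbegf most closely were found by Pearson's r over the arrays, among 4853 probes with 1 gene symbol and a value on at least 70 arrays. The median r was 0.03 and the 99th percentile 0.55. All points share lines, times and arrays, so r describes these arrays only. Csdc2, which encodes an RNA-binding protein with a cold shock domain, came first with r = 0.83 (0.89 over the 25 group means), although its other probe gave 0.41 over 62 arrays. Smurf1, a ubiquitin ligase for Smads and TGF-β receptors, followed with 0.77, and Gadd45b, a growth arrest and stress gene, with 0.76. Fhl2, a LIM-domain cofactor, gave 0.72, and Skil, the Smad corepressor SnoN, gave 0.71. The rest of the first 10 were Hs6st1, a heparan sulfate sulfotransferase (0.70, and 0.12 on its other probe), Csrp2, a LIM-domain protein (0.69), Creb3l2, a membrane-bound transcription factor (0.69, and 0.39 and 0.61 on its other probes), Garem2, an adaptor protein (0.69), and Gpsm1, a G protein regulator (0.68). The 11th probe had the same r as the 10th to 2 decimals.

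Taken within single lines, the likeness varied. For Csdc2 r was 0.92 in S2KO, 0.71 in U0126, 0.86 in S2WT, 0.15 in S3KO and 0.83 in S3WT. Csrp2 gave 0.90 in S2KO and -0.32 in U0126. Creb3l2 kept r between 0.67 and 0.87 in all 5 lines. Gadd45b had responses against the pooled 0 h arrays of 2.07 in S2KO, 0.82 in U0126, 1.35 in S2WT, -0.03 in S3KO and 0.95 in S3WT, and Csdc2 had 1.53, 0.91, 1.19, -0.04 and 0.68 in the same lines. Smurf1 spanned a smaller range, with 0.62 in S2KO, 0.35 in U0126, 0.45 in S2WT, -0.05 in S3KO and 0.30 in S3WT. Against the own 0 h arrays, Gadd45b stood at 0.36 in S3KO and 1.07 in S3WT, and Smurf1 at 0.25 in S3KO and 0.24 in S3WT. Csdc2 stood at -0.08 in S3KO and 1.14 in S3WT. The S3KO values of Gadd45b and Smurf1 near 0 therefore depend on the pooled 0 h arrays.

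The probes least like Hbegf were those of Txnip, the thioredoxin-interacting protein (r = -0.67, and -0.18 on its other probe), Zfp36l1, an mRNA decay factor (-0.65, and -0.49), Vldlr, a lipoprotein receptor (-0.62), Snx1, a sorting nexin (-0.62), and Cdc42ep2, an effector of the GTPase CDC42 (-0.61). Txnip had responses against the pooled 0 h arrays of -0.98 in S2KO, -1.20 in U0126, -0.86 in S2WT, -0.09 in S3KO and -0.07 in S3WT, so it was near 0 in S3WT, where Hbegf was at 1.36.

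**Figure D5:**
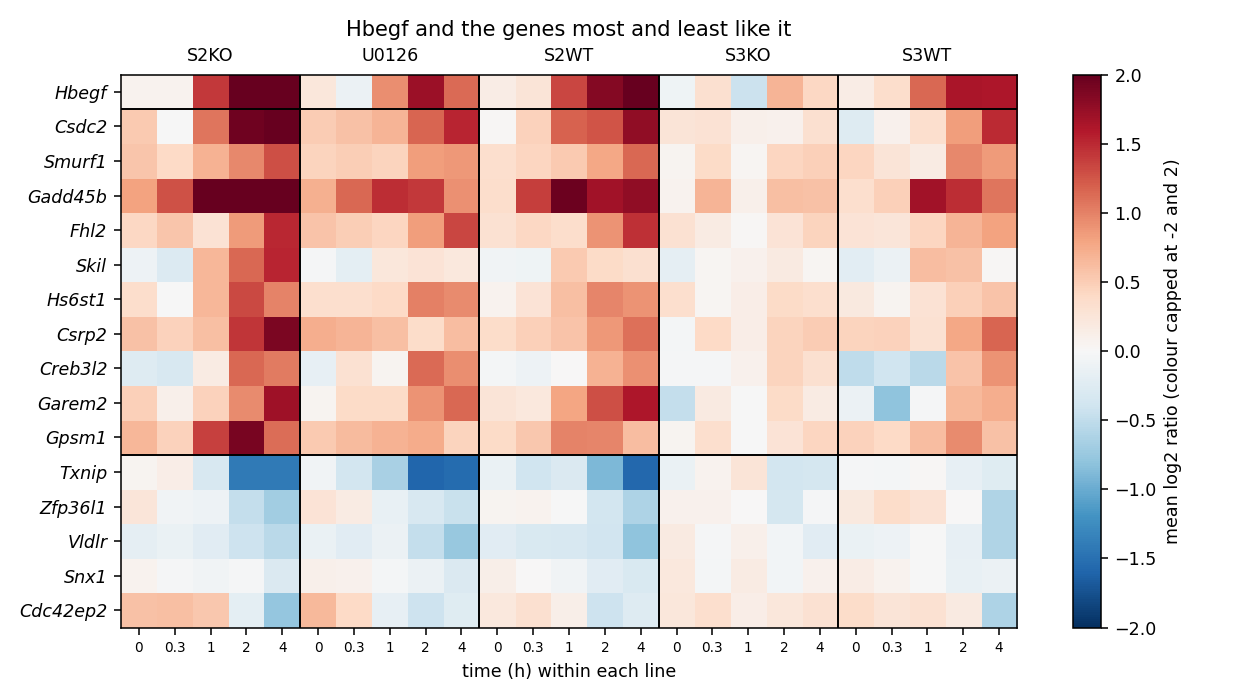
Group means (log2 ratio) of Hbegf and of the 10 most like and 5 least like genes, in 25 columns of line and time. Hbegf is high at 1 to 4 h in S2KO, U0126, S2WT and S3WT, and its S3KO columns stay within -0.43 to 0.68.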

How the data were processed

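The authors deposited 1 log2 ratio per probe and array, with TGF-β in channel 2 per the labels (and in neither at 0 h). The dyes and how the ratios were normalised are not given in the sources used. Of these values, 1344 equal 16.61, the log2 of a ratio of 100000, and values above 16.6 were set to missing. None was an Hbegf value. Each array was centred on its median, which ranged from -0.60 to 0.22. Gene symbols came from the platform annotation, which gives 7348 probes a single symbol.

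Group means were fitted per probe over all 74 arrays in R 4.3.3, with variances moderated by squeezeVar of limma 3.58.1. Tests needed values on 2 or more arrays in every group of a contrast. P-values were adjusted by Benjamini-Hochberg over all tested probes, with a threshold of 0.05. The procedure was tested on simulated data.

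Named genes were Hbegf, the 10 probes most like it and the 5 least like it, every called list gene, the measured receptors and, per list, the 2 probes with the smallest p in S2KO or S2WT. For a gene with several probes, the smallest p decided which is given first. Hbegf and the lists were chosen with earlier results of these data known. Alternatives were other centring and scaling, other time windows, baselines, filters and sets of arrays, a replicate block, and leaving out each array. Leaving out the arrays that stood apart and turning the sign of 1 array were chosen after the data were seen.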

Additional observations from a re-analysis of the deposited data

Results flagged for a closer look

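At 1 h, minus the own 0 h mean, Hbegf was below 0 on both S3KO arrays and above 0 on every S3WT and S2KO array. The S3KO mean was -0.35 against 0.99 in S3WT, a difference of -1.34. Against S2KO, whose mean was 1.35, the difference was -1.70. Neither difference was tested. S3KO at 1 h has 2 arrays, and replicate 2 stood apart from the other arrays. The remaining array read -0.25, below every S3WT and S2KO array at 1 h. Whether replicate 2 bears on the difference was not tested.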

How the results depend on the processing

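The Hbegf responses and differences between lines kept their sign under every alternative run, and none moved by more than the spread between arrays. Leaving out 1 array at a time, the response against own 0 h arrays ranged from 2.03 to 2.51 in S2KO, 0.87 to 1.25 in U0126, 1.72 to 1.83 in S2WT, 0.25 to 0.37 in S3KO and 1.14 to 1.43 in S3WT, and against pooled 0 h arrays from 1.99 to 2.45, 1.00 to 1.38, 1.77 to 1.88, 0.06 to 0.18 and 1.19 to 1.48 in the same lines. Differences of responses ranged from 0.27 to 0.75 (S2KO minus S2WT), -0.89 to -0.51 (U0126 minus S2WT), -1.12 to -0.83 (S3KO minus S3WT) and -2.20 to -1.72 (S3KO minus S2KO). From 2 and 4 h alone the responses were 2.73 in S2KO, 1.19 in U0126, 2.05 in S2WT, 0.63 in S3KO and 1.47 in S3WT. With arrays scaled to a common spread the S2KO mean at 4 h was 2.38 in place of 3.19, and S3WT (1.57) stood above S2WT (1.49) in response. The U0126 minus S2WT difference, -0.74, was -0.37 with scaled arrays and -0.44 with arrays not centred. The S3KO response against own 0 h arrays, 0.31, was 0.20 with arrays not centred, and against pooled 0 h arrays, 0.12, it was 0.45 from 2 and 4 h alone, 0.19 with scaled arrays and 0.07 without S3KO in the pool.

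Counts of called list probes were unstable. Arrays not centred gave 0 in S3KO (own 0 h), and 1 in S2KO and 2 in S2WT (pooled). Scaled arrays gave 0 in S2KO, 4 in U0126 and 0 in S2WT (pooled). Leaving the S3KO 0 h arrays out of the pool gave 0 in S2KO and 0 in S2WT. Probes measured on every array gave 2 in S3KO (own), and 1 in S2KO, 1 in U0126 and 0 in S2WT (pooled). Using only the arrays of the contrast gave 0 in S3KO (own), and 0 in S2KO and 2 in U0126 (pooled). Without the 5 arrays that stood apart there were 3 in U0126 and 0 in S2WT (pooled), and with the sign of 1 S3KO array turned 2 in S3KO (own). The cause was not tested. Leaving out 1 array gave 0 to 4 in S3KO (own), and 0 to 5 in S2KO, 0 to 1 in U0126 and 0 to 1 in S2WT (pooled). The 5 came without S2KO at 4 h replicate 2, and 0 in S2KO without S2KO at 0 h replicate 3 or U0126 at 0 h replicate 1. Lrig1 was called in 12 of 24 such fits and Ets2 in 9 of 11. Ier2 was tested in only 20 of the 24 in each of S2KO and S2WT, and was called in all 20. In the other fits the 0 h group of S2KO or U0126 kept too few Ier2 values. The 0 counts in S2KO and S2WT all came from fits that did not test Ier2. Counts in differences of responses ranged from 0 to 1 in S3KO minus S3WT and stayed at 0 in the other two.

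Of the 10 genes most like Hbegf, 6 were shared by Spearman's rho and 5 over group means. Of the 5 least like, 3 were shared by rho, 3 over group means and 3 without centring. In deviations from the group mean, same-numbered arrays of a line correlated over 0.1 in 69 of 146 pairs. The bar for a shared source was every pair. That bar is so strict that missing it cannot decide whether same-numbered arrays share a source, and the labels give none. The median r of same-numbered pairs was above that of other pairs in each line, at 0.17 against -0.10 in S2KO, 0.01 against -0.02 in U0126, 0.11 against -0.09 in S2WT, 0.17 against -0.10 in S3KO and 0.07 against -0.05 in S3WT. The deviations sum to 0 within a group, so a positive r in same-numbered pairs by itself lowers that of other pairs. With the number within a line as a replicate block, the S3KO response was 0.32 ± 0.39, the other responses kept their values, with an SE of 0.38, and no count of list probes changed. Contrasts with pooled 0 h arrays cannot be estimated with the block. No Hbegf value was at the ceiling, so keeping those values gave no alternative.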
